A study of Mus musculus with 24 samples.

Results

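The comparison covers the differentiation of WT myoblasts into myotubes in culture. It uses the 6 bulk RNA-seq libraries labelled as WT myoblasts (replicates 1 to 3) and as WT myotubes after 2 days (replicates 1 to 3), of 24 libraries in the series, and its members were chosen by these labels and by no measured value. The series also holds *mdx* cultures and MuSCs sorted from WT and *mdx* muscle, at rest or 3 days after cardiotoxin. *mdx* is the dystrophin-deficient strain used as a model of Duchenne muscular dystrophy, and its cultures serve here as a separate set of 6 libraries.

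Both WT groups came from mice on the C57BL/10ScSnJ background that carried Pax7-nGFP, a transgene in which a nuclear GFP reports the activity of *Pax7*. The genotype is labelled Pax7-nGFP for WT and mdx.Pax7-nGFP for *mdx* mice, so that controls and mutants share the reporter. Myoblasts, the dividing progeny of MuSCs, were isolated from hindlimb muscle on magnetic columns as α7-integrin-positive cells depleted of cells with CD31, CD11b, CD45 or SCA1. They grew on collagen in Ham's F10 with 20% FBS and 5 ng/mL bFGF. For myotubes, confluent cells were kept for 2 days in an equal mix of Ham's F10 and DMEM with 5% horse serum, so the loss of FBS and bFGF and the passage of time cannot be told apart. Age and sex of the mice used for culture are not given in the sources used here, nor is it stated whether a myotube library shares a mouse with the myoblast library of the same number. The myotube cultures are mixed, since cells that do not fuse stay in the dish. In such bulk samples, fewer cells of a type and less RNA per cell cannot be told apart.

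Skeletal muscle differentiation begins when a dividing myoblast leaves the cell cycle. MYF5 and MYOD, bHLH factors that commit cells to the muscle lineage, are followed by MYOG and MEF2 factors, which switch on genes of contraction and fusion. Id proteins hold MYOD back by binding its E-protein partners, and the CDK inhibitor p21 and the retinoblastoma protein enforce exit from the cycle. Fusion of the myocytes then needs the membrane proteins myomaker and myomixer, and the new syncytium assembles sarcomeres, calcium stores and acetylcholine receptors.

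Totals ran from 58343353 to 60728580 reads in the myoblast libraries and from 37337731 to 44836107 in the myotube libraries. Spearman correlations over the tested genes were 0.986 to 0.990 within a state and 0.834 to 0.873 between states. Over these genes, the difference between the states took 84.7% of the spread between libraries. Myoblast replicates took 7.99% and myotube replicates 7.31%. A principal component analysis of the 6 libraries used only the most variable genes, which favours a larger share. Its first component held 92% of the variance of those genes and separated the states. Myoblast replicate 2 stood apart on this component at -50.7, against -74.3 and -72.2 for replicates 1 and 3 and 61.6 to 70.0 for the myotubes. This library held more mRNA of differentiation genes than the other 2 (*Tnnc2* 4.69, 36.6 and 7.19 CPM in myoblast replicates 1 to 3). Where leaving it out moved a printed log2 fold change by over 1.5 times in fold, the value without it is given in words or stands in square brackets. The fold changes of *Myh1*, *Myh8*, *Myl1*, *Mylpf*, *Myl4*, *Slc2a4*, *Trim63*, *Itgb1bp2* and *Itgam*, which are given in CPM alone, moved likewise to larger values. The 10 myotube markers took 0.111, 0.669 and 0.131% of all transcripts by TPM in myoblasts and 10.8, 10.9 and 11.5% in myotubes.

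CPM below are read counts of a gene relative to the library total after TMM scaling. A log2 fold change is of myotubes over myoblasts and stands with its standard error. Adjusted p values are from the quasi-likelihood test of edgeR with Benjamini-Hochberg adjustment over the 16907 genes tested, and a gene is said to have risen or fallen where this p is under 0.05. By this rule 5903 genes (34.9% of those tested) rose and 5839 (34.5%) fell. Of these, 3477 (20.6%) rose and 3370 (19.9%) fell at least 2-fold, and 423 rose and 213 fell at least 32-fold. The libraries of the states did not overlap for 75.8% of tested genes. Without myoblast replicate 2, 5842 genes rose and 5714 fell. Leaving out this library moved the fold change of 67 of the 495 named genes that passed the test by over 1.5 times, all of them genes that rose and all to a larger value, against 1 to 8 genes for any other library. A count of changed genes in a list is to be read against these shares. The median log2 fold change over all tested genes was -0.02, and it was -0.32 where libraries were scaled to their totals alone. Under that scaling 4543 genes rose and 7477 fell, and 2706 rose and 4444 fell at least 2-fold. The even split between the directions thus rests on the scaling. All changes below are relative to TMM scaling.

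**Figure D1:**
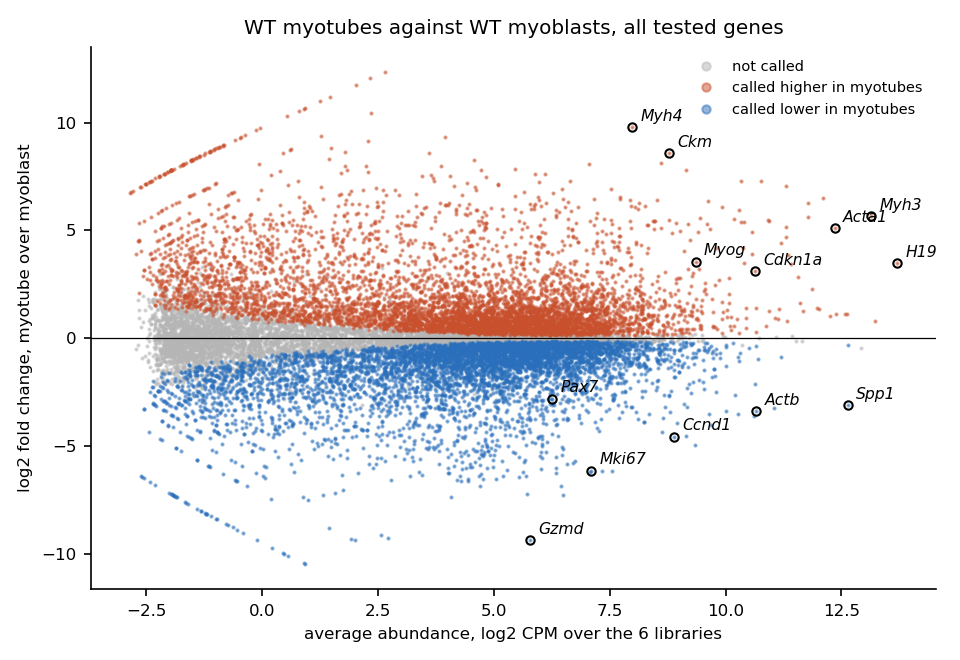
Log2 fold change of myotubes over myoblasts (vertical) against average abundance in log2 CPM (horizontal) for the 16907 tested genes, with genes that rose in red, genes that fell in blue and the rest in grey. The 5903 higher and 5839 lower genes lie on both sides of zero at all abundances, with *Myh4*, *Ckm* and *Gzmd* at the edges.

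The largest increases among well expressed genes include genes of contraction and of its energy supply. *Myh4*, a fast adult myosin heavy chain, stood at 0.373, 1.17 and 0.189 CPM in myoblasts and 667, 346 and 498 CPM in myotubes. Its log2 fold change of 9.78 ± 0.75 [10.80] (adjusted p = 0.000191) was the largest by the rule used to name genes. *Ckm*, the muscle creatine kinase, rose from 1.38, 4.89 and 0.495 to 971, 852 and 793 CPM (8.60 ± 1.00 [9.87]; adjusted p = 0.000991). For both genes each myotube library lay far above each myoblast library. The rule also named *Hephl1* (8.25 [9.74]), *Casq1* (8.11 [8.84]; the calcium-binding protein of the fast sarcoplasmic reticulum), *Cmya5* (8.09), *Ckmt2* (7.87; the mitochondrial creatine kinase of sarcomeric muscle), *Mybpc1* (7.80 [8.55]; a thick filament protein), *Atp1b2* (7.78 [8.66]), *Cd36* (7.63 [8.39]; a fatty acid transporter), *Slco5a1* (7.51; 9.40 without myoblast replicate 3) and *Fsd2* (7.49 [8.61]).

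The largest decreases include genes of secreted and surface proteins. *Gzmd*, a granzyme, fell from 132, 57.6 and 141 to 0.248, 0.177 and 0.0548 CPM (-9.38 ± 0.66; adjusted p = 9.87e-05), and its neighbour in sequence *Gzme* fell from 206, 97.4 and 232 to 1.71, 0.561 and 1.12 CPM. These near-identical paralogs share reads, so the split between them is uncertain. *Tnfsf11*, the osteoclast factor RANKL, changed by -7.23, *Lgr6*, an R-spondin receptor, by -7.36 (-8.12 without myotube replicate 2), *Smoc2*, a matrix protein, by -6.54, *Trbc2* by -6.84 and *Nr4a2*, an orphan nuclear receptor, by -6.87 on the log2 scale. Others act in the cell cycle: *Mybl2*, a transcription factor of dividing cells, fell from 44.3, 43 and 40.2 to 0.521, 0.443 and 0.301 CPM (-6.64 ± 0.16; adjusted p = 1.06e-07). *Exo1* (-6.62), *Cdca7* (-6.58), *Knl1* (-6.56) and *Ncapg* (-6.55), which act in DNA repair, chromatin, the kinetochore and condensin, fell by like amounts, and their replicates lay close together in both states.

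Among the regulators of myogenesis, the factor of the undifferentiated state fell and those of terminal differentiation rose. *Pax7*, the factor that marks MuSCs (chromosome 4, 139737062 to 139833528), stood at 137, 123 and 141 CPM in myoblasts and 20.6, 19.5 and 17.2 CPM in myotubes. It fell by 2.81 on the log2 scale (SE 0.09; adjusted p = 2.36e-07), with no overlap between the states. *Myod1* read 1236, 1186 and 1264 CPM in myoblasts and 729, 638 and 603 CPM in myotubes, a smaller decrease (-0.90 ± 0.08; adjusted p = 2.56e-05). *Myf5* did not pass the test: it read 18.5, 9.3 and 21.2 CPM in myoblasts and 13.4, 11.9 and 10.5 CPM in myotubes, with overlap between the states (-0.45 ± 0.30; adjusted p = 0.222).

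*Myog* (chromosome 1, 134289989 to 134292548) stood at 38.6, 222 and 48 CPM in myoblasts and 1255, 1131 and 1230.2 CPM in myotubes. Myoblast replicate 2 was above the other 2 myoblast libraries but below all myotube libraries, and the log2 fold change was 3.55 ± 0.83 (adjusted p = 0.0141) with that library and 4.79 without it. *Myf6*, the bHLH factor of late differentiation, went from 0.202, 0.0935 and 0.0437 CPM in myoblasts to 51, 13.8 and 22.3 CPM in myotubes (7.99 ± 0.83; adjusted p = 0.000396), and the highest of its myotube libraries was replicate 1. The value was 7.31 without that library and 8.69 without myoblast replicate 1. *Mef2c*, a MADS-box partner of MYOG, rose from 12.1, 61.8 and 14.1 to 1022, 985 and 1399.9 CPM (5.28 ± 0.86; 6.44 without myoblast replicate 2). *Mef2d* rose from 86.9, 109 and 83 to 392, 359 and 388 CPM (2.03 ± 0.11). Of the E-protein genes, whose products pair with MYOD and MYOG, *Tcf3* fell (-2.22 ± 0.06) and *Tcf4* rose (1.08 ± 0.06). In the list of myogenic transcription factors, 13 of 31 tested genes rose and 13 fell, which is no shift in 1 direction. Under scaling to totals 12 rose and 16 fell.

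The inhibitors of these factors mostly fell. *Id1* read 242, 244 and 243 CPM in myoblasts and 68.8, 43.8 and 35.8 CPM in myotubes, *Id2* changed by -2.93 ± 0.15, and *Id3*, the most abundant of the 3 by CPM, went from 488, 460.1 and 523 to 63.4, 43.6 and 30.0 CPM (-3.42 ± 0.29; adjusted p = 0.000124). *Hes1*, a Notch target and repressor, fell from 61.4, 56.1 and 62.6 to 17.7, 17.1 and 17.5 CPM. *Snai2*, which competes with MYOD at E-boxes, fell as well (-2.89 ± 0.23), and so did *Mdfic* (-1.55 ± 0.12). Of other genes placed in the same list, *Hes6* (0.92 ± 0.10), *Heyl* (4.35 ± 0.38) and *Zeb1* (1.80 ± 0.12) rose, while *Hey1* did not pass the test (0.87 ± 0.34; adjusted p = 0.0528). In all, 11 of 19 tested genes of the list of Id, Hes and other bHLH repressors fell and 5 rose.

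**Figure D2:**
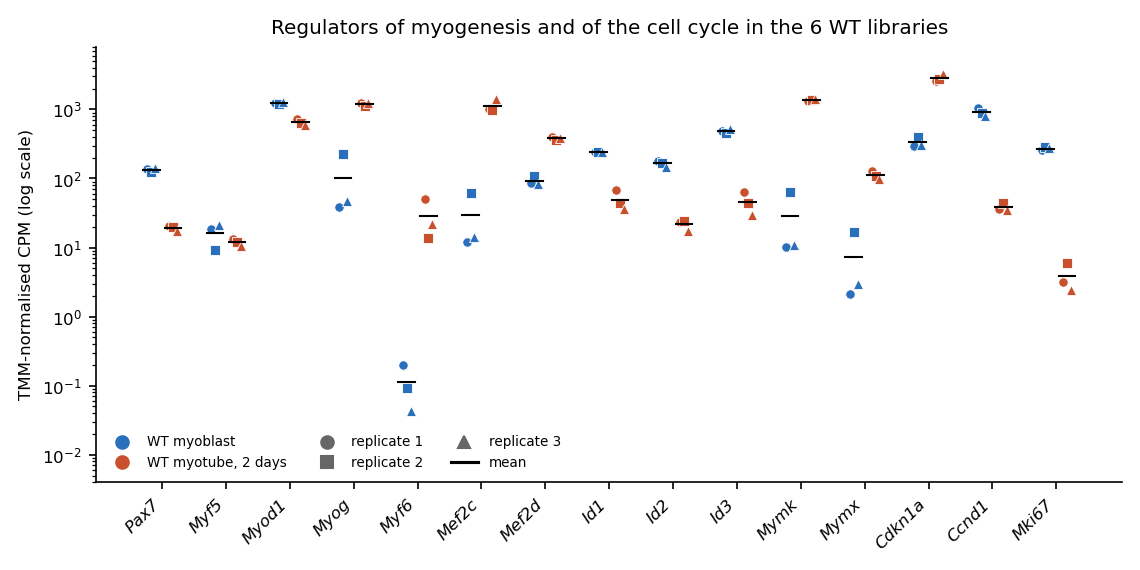
CPM on a log axis of 15 regulators of myogenesis and of the cell cycle in each of the 3 WT myoblast (blue) and 3 WT myotube (red) libraries, with the mean as a line. *Pax7*, the Id genes, *Ccnd1* and *Mki67* are lower and *Myog*, *Mef2c*, *Mymk* and *Cdkn1a* higher in every myotube library, *Myf5* overlaps, and myoblast replicate 2 (square) lies above the other myoblasts for *Myog*, *Mef2c*, *Mymk* and *Mymx*.

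Notch signalling and the surface genes of satellite cells changed in part. In the list of Notch signalling, 11 of 19 tested genes fell and 4 rose, mostly by under 2-fold, or 15 and 3 under scaling to totals. The receptor *Notch2* fell from 139, 136 and 139 to 46.2, 48.6 and 43.3 CPM (-1.59 ± 0.06), whereas *Notch3* did not pass the test (-0.35 ± 0.19; adjusted p = 0.143). *Psen2*, a subunit of the protease that cleaves Notch, rose from 6.4, 6.9 and 8.06 to 91.1, 94.7 and 93.1 CPM (3.70 ± 0.10), and *Numbl*, a Notch antagonist, rose 2-fold. Of 25 genes of quiescence and the satellite cell surface, 13 fell and 7 rose, or 15 and 6 under scaling to totals. The genes that fell include *Sdc3* (-3.13 ± 0.10) and *Sdc4* (-1.47 ± 0.08), syndecans that bind growth factors, and *Vcam1* (-2.89 ± 0.15). Surface proteins shared by satellite cells and muscle fibres rose: *Itga7*, the laminin receptor used to isolate the cells, went from 298, 339.9 and 355 to 1102, 1124 and 1106 CPM, *Cdh15* changed by 1.34 ± 0.06 and *Ncam1* by 2.47 ± 0.10. *Spry1*, an inhibitor of FGF signals, rose from 21.1, 21.8 and 12.3 to 83.5, 92.7 and 97.2 CPM.

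The fusion proteins rose while many genes listed with fusion did not. *Mymk*, which codes for myomaker, stood at 10.3, 63.5 and 11 CPM in myoblasts and 1338, 1368 and 1391 CPM in myotubes. Its log2 fold change was 5.60 ± 0.98 (adjusted p = 0.00484), and 7.0 without myoblast replicate 2. *Mymx*, which codes for myomixer, read 2.11, 16.6 and 2.96 CPM in myoblasts and 129, 109.7 and 99 CPM in myotubes (3.96 ± 0.91; 5.46 without that library). In both cases myoblast replicate 2 was nearest to the myotubes, and the states did not overlap. *Dysf*, the membrane repair protein dysferlin, rose from 19.1, 27 and 13.6 to 332, 294 and 306 CPM, but its relative *Myof*, myoferlin, fell from 568, 457 and 508 to 335, 293 and 297 CPM. *Cav3* (4.97 ± 0.83 [6.18]) and *Arhgap10* (2.52 ± 0.09; a GTPase-activating protein) rose. *Kirrel* (-3.21 ± 0.07), *Il4ra* (-2.41 ± 0.08), *Wipf1* (-3.07 ± 0.08) and *Adam12* (-1.35 ± 0.37) fell. Over the list, 16 of 46 tested genes rose, 21 fell and 9 did not pass the test. Under scaling to totals 15 rose and 27 fell.

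Genes of the contractile apparatus rose, and the Z-disc list had the highest median of the 40 pathway lists (5.06). Myosin heavy and light chains took 0.303, 0.836 and 0.306% of TPM in myoblasts and 10.9, 10.9 and 11.7% in myotubes. Of 23 tested myosin genes, 16 rose and 3 fell, or 15 and 5 under scaling to totals. *Myh3*, the embryonic heavy chain, stood at 116, 809.9 and 119 CPM in myoblasts and 17323, 18908 and 17179.9 CPM in myotubes (5.68 ± 1.07; 7.24 without myoblast replicate 2). *Myh8*, the perinatal form, rose from 8.28, 48.8 and 10.4 to 3117, 3319 and 3995 CPM, and *Myh1*, the fast 2X form, from 39, 192 and 57.1 to 9045, 6926 and 10064 CPM. Per length, *Myh3* was highest in myotubes at 1607 ± 122 TPM (mean ± SD), followed by *Myh1* at 801 ± 131 TPM, *Myh8* at 314 ± 33.3 TPM, *Myh4* at 46.1 ± 14.8 TPM and *Myh2* at 0.563 ± 0.0632 TPM. The ranges of these 5 do not overlap. *Myh7*, the slow form, did not pass the test: it read 5.84, 35.7 and 5.08 CPM in myoblasts and 13.9, 32.2 and 21.1 CPM in myotubes, with overlap (0.53 ± 0.91; adjusted p = 0.639). The sarcomeric heavy chains are alike in sequence, and how reads were split between them rests on the authors' quantification.

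Light chains followed, with *Myl1* at 31.3, 194 and 38.8 CPM in myoblasts and 6893, 6596 and 7232 CPM in myotubes and *Mylpf* at 46.1, 313 and 55.4 and 6669, 6639 and 7406 CPM. The embryonic *Myl4* rose from 28.3, 211 and 26.3 to 3556, 3702 and 4180.1 CPM. Non-muscle myosin went the other way: *Myh9* fell from 1358, 1283 and 1246 to 379, 387 and 338 CPM, *Myh10* changed by -2.61 ± 0.11 and the smooth muscle light chain *Myl9* by -3.76 ± 0.17. The libraries of the states did not overlap for any of these 6.

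A switch between non-muscle and sarcomeric members was seen again in the thin filament, where 19 of 29 genes rose and 10 fell. The skeletal actin *Acta1* stood at 98, 699.6 and 100.3 CPM in myoblasts and 10288, 10376 and 9939 CPM in myotubes (5.09 ± 1.05; 6.68 without myoblast replicate 2), and cardiac actin *Actc1* changed by 5.14 ± 1.01 [6.61]. The cytoplasmic actins *Actb* (3067, 2922 and 2905 CPM in myoblasts, 297, 303 and 248 CPM in myotubes) and *Actg1* (-3.25 ± 0.12) fell. In TPM, *Actb* went from 7183 ± 224 to 526 ± 115 and *Acta1* from 167 ± 192 to 4428 ± 222, which turned their order around. The troponin genes marked as key in this list rose, from *Tnnt1* (2.41 ± 0.24) to *Tnnc2* (7.30 ± 1.09 [8.74]), slow and fast forms alike. These marks were set with earlier results of these data known. Of the tropomyosins, *Tpm2* rose from 284, 419 and 297 to 4846, 4605 and 5233 CPM, *Tpm1* rose less (0.77 ± 0.08), and *Tpm3* (-1.97 ± 0.07) and *Tpm4* (-3.94 ± 0.10) fell. Nebulin and its relative parted, with *Neb* at 4.17 ± 0.31 and *Nebl* at -5.96 ± 0.14, and so did the tropomodulins *Tmod4* (5.19 ± 0.48) and *Tmod3* (-2.85 ± 0.10).

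In the Z-disc, M-band and titin filament, 42 of 47 genes rose. *Ttn*, the giant spring protein, stood at 122, 289 and 144 CPM in myoblasts and 5502, 4144 and 4893 CPM in myotubes (4.71 ± 0.43; adjusted p = 0.000269). *Actn2* (6.06 ± 0.96 [7.37]) and *Actn3* (5.06 ± 0.36), the α-actinins of the Z-disc, rose, whereas the non-muscle *Actn1* (-1.67 ± 0.06) and *Actn4* (-1.08 ± 0.09) fell, as did *Csrp1* (-1.86 ± 0.07). *Des*, the intermediate filament desmin, was already abundant in myoblasts (372, 613 and 415 CPM) and reached 5048, 5167 and 4728 CPM in myotubes. *Ankrd23* rose from 3.03, 3.01 and 2.58 to 161, 154 and 189.8 CPM, and here myoblast replicate 2 did not differ from the others. Of 18 assembly chaperones and regulators, 15 rose, among them *Unc45b* (6.13 ± 0.89 [7.37]), the myosin chaperone of muscle, *Smyd1* (4.30 ± 0.56 [4.97]), *Klhl40* (5.12 ± 0.68 [6.04]) and *Klhl41* (4.97 ± 1.01 [6.48]). The 2 that fell, *Hsp90aa1* (-1.30 ± 0.07) and *Unc45a* (-0.39 ± 0.08), are general chaperones, and the call of *Unc45a* was lost when effective length was modelled (adjusted p = 0.184).

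Without myoblast replicate 2, the median log2 fold change of the myosins moved from 4.28 to 4.92, of the thin filament from 3.88 to 4.07, of the Z-disc list from 5.06 to 5.90 and of the chaperones from 4.16 to 4.60.

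Calcium handling and excitability rose with the sarcomere. In excitation-contraction coupling, 36 of 44 tested genes rose and 6 fell. The calcium release channel *Ryr1* stood at 73.5, 131 and 70.3 CPM in myoblasts and 1809, 1477 and 1735 CPM in myotubes (4.19 ± 0.30), and its voltage sensor *Cacna1s* at 4.61, 34.9 and 7.25 and 701, 626 and 705 CPM (5.44 ± 0.97; 6.83 without myoblast replicate 2). Of the calcium pumps, the fast *Atp2a1* changed by 7.07 ± 0.96 [8.29] and *Atp2a2* by 1.62 ± 0.09. *Trdn*, *Hrc* and *Casq2*, proteins of the calcium store, rose by 6.55 [7.94], 6.41 [7.77] and 5.92 [7.63], and *Stim1*, the sensor for store refilling, by 3.72. Genes that fell include the IP3 receptors *Itpr1* (-2.96 ± 0.13) and *Itpr3* (-1.51 ± 0.07) and the exchanger *Slc8a1* (-2.11 ± 0.19), which act in calcium signalling of many cell types.

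The acetylcholine receptor of muscle has α, β, γ and δ subunits in the fetus, and ε replaces γ in the adult. *Chrna1* stood at 1119, 1197 and 1184 CPM in myoblasts and 2865, 2633 and 2789.8 CPM in myotubes, *Chrnb1* changed by 1.06 ± 0.06 and *Chrnd* by 2.12 ± 0.07. *Chrng* rose from 101, 132 and 110.2 to 1069, 1069.8 and 1019 CPM (3.20 ± 0.10; adjusted p = 2.47e-07). *Chrne* rose too (5.23 ± 0.74 [6.16]; 4.64 without myoblast replicate 3) but reached only 1.91, 1.56 and 1.97 CPM. Per length, *Chrng* stood at 333 ± 20.5 TPM and *Chrne* at 0.98 ± 0.326 TPM in myotubes. The postsynaptic *Musk* (2.04 ± 0.16), *Rapsn* (1.38 ± 0.10) and *Dok7* (1.49 ± 0.14), which cluster the receptor, rose, as did *Ache*, the esterase that ends the signal (0.854, 1.54 and 1.69 to 62.2, 45.3 and 58.4 CPM), the sodium channel *Scn4a* (6.12 ± 0.28) and the chloride channel *Clcn1* (4.15 ± 0.37). *Agrn*, the clustering signal, fell (-1.83 ± 0.10). Of 35 genes in this list, 26 rose and 4 fell.

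In the dystrophin-glycoprotein complex, which ties the cytoskeleton to the matrix, 20 of 28 genes rose. *Dmd* stood at 4.66, 12.1 and 4.11 CPM in WT myoblasts and 177, 183 and 201 CPM in WT myotubes (4.76 ± 0.51 [5.41]; adjusted p = 0.000684). In *mdx* myotubes, which carry a nonsense mutation in this gene, it reached 38.3 ± 4.33 CPM (SD, n = 3). This value was scaled apart from those of WT, and the difference between the genotypes was not tested. Its autosomal relative *Utrn* rose 2-fold (1.00 ± 0.06), *Dag1* by 3.23 ± 0.09 and the sarcoglycans *Sgca* and *Sgcb* by 1.74 and 1.68. *Dtna* rose (2.91 ± 0.12) and *Dtnb* fell (-2.23 ± 0.10), as did *Sntb2* (-1.12 ± 0.07).

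Of 42 genes of glycolysis, glycogen and glucose transport, 27 rose and 11 fell, or 24 and 14 under scaling to totals. *Slc2a4*, the insulin-responsive transporter GLUT4, stood at 0.404, 1.65 and 0.626 CPM in myoblasts and 79, 78.4 and 103 CPM in myotubes, while the general transporter *Slc2a1* fell from 78.5, 78.6 and 67 to 40.4, 40.1 and 34.4 CPM. The muscle phosphofructokinase *Pfkm* rose from 39.5, 60.6 and 45.6 to 1178, 1101 and 1191 CPM (4.57 ± 0.17), against -0.46 ± 0.11 for the liver form *Pfkl*. Other members went the other way: the platelet form *Pfkp* changed by 0.74 ± 0.18, a call lost under scaling to totals and with effective length modelled (adjusted p = 0.0573 and 0.0656). The muscle hexokinase *Hk2* changed by -0.42 ± 0.13, a call lost without myotube replicate 1 or 3 (adjusted p = 0.0516 and 0.0611) and with effective length modelled (adjusted p = 0.0634). Muscle enolase *Eno3* changed by 2.04 ± 0.13, and *Eno1*, at -0.22 ± 0.07, lost its call without myoblast replicate 1, myoblast replicate 2 or myotube replicate 1 (adjusted p = 0.0527 to 0.0793). Muscle glycogen phosphorylase *Pygm* rose (4.91 ± 0.11) and brain *Pygb* fell (-1.56 ± 0.08), and *Pgam2*, *Aldoa* and *Tpi1* rose by 6.13 [6.88], 2.82 and 2.30. *Pkm* did not pass the test at the gene level (0.12 ± 0.07; adjusted p = 0.15).

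Of 17 genes of the creatine, adenylate and myoglobin list, 12 rose. *Ampd1* (6.99 ± 0.41), *Adssl1* (4.87 ± 0.34) and *Ak1* (2.08 ± 0.06), enzymes of adenine nucleotides in muscle, rose, and *Ampd2* (-0.77 ± 0.07) and *Adss* (-3.19 ± 0.07) fell. The brain creatine kinase *Ckb* rose as well, from 42, 38.2 and 41.9 to 285, 444 and 419 CPM. Myoglobin, *Mb*, read 10.5, 58.6 and 13.6 CPM in myoblasts and 383, 461 and 491 CPM in myotubes (4.01 ± 0.82; 5.20 without myoblast replicate 2).

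Mitochondrial genes rose together and by a like amount. In nuclear-encoded oxidative phosphorylation, 76 of 77 genes rose, 69 of them at least 2-fold, with a median of 1.5 against -0.02 over all tested genes. Under scaling to totals alone the median was 1.20. *Ndufa9* of complex I went from 63.5, 70.9 and 66.8 to 319, 312 and 330.5 CPM (2.26 ± 0.06), and *Sdha* (1.45 ± 0.06), *Uqcrc1* (1.75 ± 0.08), *Cox4i1* (1.45 ± 0.06) and *Atp5b* (1.34 ± 0.08) of complexes II to V stayed near the median. The heart and muscle isoforms of cytochrome oxidase were the exception in size: *Cox6a2* stood at 0.59, 3.74 and 0.626 CPM in myoblasts and 106, 106 and 136 CPM in myotubes (6.14 ± 0.80 [7.56]), and *Cox7a1* and *Cox8b* rose by 5.92 and 6.77 [7.65]. All 13 mitochondrially encoded genes rose (median 1.12), for example *mt-Nd2* from 1608, 1592 and 1384 to 4685, 4963 and 4572 CPM, and by TPM this group made up 5.74 to 6.52% of myoblast and 9.55 to 10.4% of myotube transcripts.

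Of 37 genes of mitochondrial biogenesis and the TCA cycle, 31 rose. The coactivator *Ppargc1a* went from 5.22, 4.77 and 4.92 to 24.4, 21.7 and 26.9 CPM (2.29 ± 0.11) and *Esrra* changed by 0.98 ± 0.08. The factors *Nrf1* (-0.60 ± 0.07) and *Gabpa* (-0.45 ± 0.05) fell, and *Tfam*, a transcription factor of mitochondrial DNA, did not pass the test (-0.05 ± 0.05; adjusted p = 0.401). In fatty acid uptake and oxidation, 28 of 33 genes rose. *Cpt1b*, the muscle form of an enzyme needed for the entry of fatty acids into mitochondria, rose from 1.2, 1.48 and 0.0582 to 76.3, 34.1 and 70.5 CPM. The liver form *Cpt1a* fell from 324, 314 and 371 to 51.1, 47.5 and 37.1 CPM. Fatty acid binding proteins split likewise, with *Fabp3* at 5.70 ± 0.42 and *Fabp5* at -3.28 ± 0.21.

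Sterol synthesis rose too. Of 34 genes of cholesterol and fatty acid synthesis, 29 rose and 4 fell (median 2.33). *Hmgcs1* stood at 43.7, 48.6 and 40.7 CPM in myoblasts and 320.3, 506 and 371 CPM in myotubes (3.17 ± 0.19) and *Fdps* changed by 3.62 ± 0.16. *Scd1*, a fatty acid desaturase, went from 7.59, 6.2 and 4.53 to 137, 408 and 246 CPM. Myotube replicate 2 was the highest of its group for all 3 genes. *Acaca* (-0.71 ± 0.16) and *Elovl6* (-1.82 ± 0.24), which act in fatty acid synthesis and elongation, fell. The media differ in serum, and its part in these levels was not tested.

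Genes of the cell cycle fell, and the list of mitosis had the lowest median of the 40 pathway lists. Of 82 genes of mitosis, kinetochore and cytokinesis, 80 fell, 79 of them at least 2-fold, with a median of -4.96. *Mki67*, the proliferation marker, read 257, 281 and 276 CPM in myoblasts and 3.18, 5.96 and 2.44 CPM in myotubes (-6.14 ± 0.35; adjusted p = 2.63e-05). *Ccna2*, a cyclin of S phase and mitosis, stood at 120.0, 133 and 127 and 1.69, 2.21 and 1.84 CPM, and *Cdk1*, the mitotic kinase, at 131, 148 and 128 and 4.64, 5.55 and 4.36 CPM. Myoblast replicate 2 was close to the other myoblast libraries for these 3 genes, and myotube replicate 2 was the highest of its group. *Ccnb1*, *Plk1*, *Aurka*, *Cdc20*, *Cenpa*, *Tpx2* and *Kif11* changed by -6.05, -5.64, -4.98, -5.26, -6.23, -5.41 and -4.94. The 1 gene of this list that rose, *Pttg1* (securin), did so by a small amount, from 11.1, 11.3 and 12.8 to 15.3, 15.4 and 13.8 CPM (0.34 ± 0.10; adjusted p = 0.0205), and lost the call without myoblast replicate 1 or 2 or myotube replicate 1 or 2 (adjusted p = 0.0609 to 0.0726), and under scaling to totals (0.03; adjusted p = 0.814).

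In DNA replication, 56 of 57 genes fell (median -3.13). The helicase gene *Mcm4* went from 164, 172 and 163 to 11.4, 12.9 and 12.5 CPM (-3.76 ± 0.07), *Pcna*, the sliding clamp, from 214, 219 and 202 to 43, 46.6 and 41.7 CPM and *Top2a* from 374, 372 and 366 to 5.64, 6.67 and 3.07 CPM. In DNA repair and checkpoint, 52 of 63 fell, from *Atr* (-1.37 ± 0.11) and *Atm* (-1.5 ± 0.07) to *Brca1* (-5.02 ± 0.15), while *Trp53bp1* rose (0.70 ± 0.07).

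The regulators of G1 were divided. *Ccnd1*, the cyclin D induced by growth factors, stood at 1037, 880.1 and 792 CPM in myoblasts and 36, 43.4 and 34.6 CPM in myotubes (-4.57 ± 0.14; adjusted p = 2.93e-07). *Ccnd2* fell less (-1.5 ± 0.13) and *Ccnd3* rose, from 355, 429 and 357 to 824, 770.4 and 837 CPM (1.09 ± 0.09), so that the latter was the most abundant of the 3 per length in myotubes (1065 ± 23.3 TPM, against 34.8 ± 11 and 8.22 ± 0.765). *Cdkn1a*, which codes for p21, rose from 299, 395 and 307 to 2595, 2743 and 3238 CPM (3.10 ± 0.14), and *Cdkn1c*, for p57, from 1.23, 1.15 and 1.94 to 72.6, 70.0 and 185 CPM, highest in myotube replicate 3 (6.24; 5.63 without that library). *Rb1* rose (2.43 ± 0.12) and its relative *Rbl1* fell (-2.44 ± 0.10). *E2f1* (-1.75 ± 0.13) and *E2f7* (-6.38 ± 0.34) fell, but *E2f2* rose (2.47 ± 0.12). *Myc* fell from 76.6, 72.2 and 61.1 to 12.1, 9.89 and 8.91 CPM. Of 41 genes of this list, 13 rose and 20 fell, or 8 and 23 under scaling to totals. Among p53 targets and senescence genes, 11 of 31 rose and 15 fell, or 7 and 17 under scaling to totals. *Trp53* fell (-2.10 ± 0.06), *Sesn1* rose (2.41 ± 0.14) and *Mdm2* did not pass the test (-0.13 ± 0.10; adjusted p = 0.266).

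Promoters of 5 genes from these groups are shown because their members moved together: 3 rose with differentiation and 2 are cell cycle genes that fell. Each is the RefSeq sequence of the 250 bases before the gene's start on GRCm38.p6, in the direction of the gene. In *Chrng* (chr1:87205561-87205810, plus strand), *Chrna1* (chr2:73580339-73580588, minus strand) and *Acta1* (chr8:123894776-123895025, minus strand), capitals mark CAGCTG, the E-box variant that MYOD and MYOG bind, and in *Acta1* also a CArG box, to which serum response factor binds. In *Cdk1* (chr10:69352913-69353162, minus strand) and *Ccnb2* (chr9:70421555-70421804, minus strand), capitals mark CCAAT or ATTGG and TTTGAA, the letters of the cell cycle homology region.
Chrng: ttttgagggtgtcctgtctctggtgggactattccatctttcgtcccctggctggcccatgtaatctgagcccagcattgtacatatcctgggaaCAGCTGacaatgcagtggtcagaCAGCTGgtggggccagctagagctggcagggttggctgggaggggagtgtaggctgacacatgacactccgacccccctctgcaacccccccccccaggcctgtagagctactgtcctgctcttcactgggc
Chrna1: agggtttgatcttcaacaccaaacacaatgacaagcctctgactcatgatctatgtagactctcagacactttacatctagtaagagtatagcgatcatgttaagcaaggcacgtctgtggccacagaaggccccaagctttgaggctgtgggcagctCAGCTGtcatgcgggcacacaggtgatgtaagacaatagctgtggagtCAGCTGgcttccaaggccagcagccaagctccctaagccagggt
Acta1: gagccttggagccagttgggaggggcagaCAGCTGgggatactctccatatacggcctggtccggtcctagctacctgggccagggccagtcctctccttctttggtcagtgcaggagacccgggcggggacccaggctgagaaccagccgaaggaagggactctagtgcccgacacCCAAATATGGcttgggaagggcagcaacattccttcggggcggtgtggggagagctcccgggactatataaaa
Cdk1: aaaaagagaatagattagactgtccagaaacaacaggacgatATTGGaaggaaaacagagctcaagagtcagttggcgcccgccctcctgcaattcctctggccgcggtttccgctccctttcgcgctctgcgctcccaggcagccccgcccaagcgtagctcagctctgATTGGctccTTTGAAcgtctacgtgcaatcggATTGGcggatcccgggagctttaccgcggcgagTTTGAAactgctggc
Ccnb2: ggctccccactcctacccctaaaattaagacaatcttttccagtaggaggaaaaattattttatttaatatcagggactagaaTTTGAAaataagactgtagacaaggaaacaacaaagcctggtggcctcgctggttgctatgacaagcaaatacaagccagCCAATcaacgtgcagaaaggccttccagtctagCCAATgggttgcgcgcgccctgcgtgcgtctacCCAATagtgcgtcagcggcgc

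The windows of *Chrng* and *Chrna1* hold CAGCTG 2 times each, that of *Acta1* 1 time. Those of *Cdk1* and *Ccnb2* hold the CCAAT letters 3 times each, and TTTGAA 2 times and 1 time. Searched on both strands over 300 bases (250 before to 50 after the start), CAGCTG occurred in 16.3% of all 32851 RefSeq promoters, in 20.9% of 3146 promoters of genes that rose at least 2-fold and in 15.5% of 2993 promoters of genes that fell at least 2-fold. The MEF2 site was found in 3.19, 3.37 and 1.64% of these, the CArG box in 1.63, 1.53 and 1.54%, CCAAT or ATTGG in 37.4, 36.0 and 39.8% and TTTGAA or TTCAAA in 17.9, 12 and 14.8%. Over the promoters of tested genes alone, the shares were 15.8% for CAGCTG, 2.02% for the MEF2 site, 1.38% for the CArG box, 37.6% for CCAAT and 12.6% for TTTGAA. Promoters were matched by symbol for 2414 of the higher and 2333 of the lower genes. These shares are a description of letters in a window, with no test.

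Chromatin, RNA and protein synthesis moved by smaller amounts. Of 56 genes of chromatin, Polycomb and DNA methylation, 36 fell and 13 rose. *Ezh2*, the Polycomb methyltransferase of dividing cells, stood at 149.6, 125 and 145 CPM in myoblasts and 13.3, 14.2 and 13.4 CPM in myotubes, while its paralog *Ezh1* rose from 9.67, 10.8 and 11.6 to 30.2, 31.6 and 32.6 CPM. *Dnmt1* (-2.56 ± 0.05), *Uhrf1* (-5.30 ± 0.23), *Suv39h1* (-3.09 ± 0.19) and *Hdac1* (-1.41 ± 0.06) fell, and *Hdac9* (2.93 ± 0.18) and *Hdac11* (2.68 ± 0.12) rose.

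In ribosome biogenesis, 51 of 64 genes fell, with *Ncl* (-1.74 ± 0.08), *Npm1* (-2.06 ± 0.07) and *Fbl* (-1.53 ± 0.09), all proteins of the nucleolus, as examples. Cytosolic ribosomal proteins changed little, with 47 of 82 lower but 2 of them by 2-fold (median -0.20). These counts rest on the scaling, since 76 fell under scaling to totals alone and 31 where all 24 libraries were fitted together. Translation factors had no common direction: 15 of 45 rose and 19 fell, but 4 rose and 30 fell under scaling to totals. Paralogs of the helicase eIF4A parted, with *Eif4a1* at -1.36 ± 0.07 and *Eif4a2* at 1.09 ± 0.07. In the proteasome, ubiquitin ligase and autophagy list, 34 of 54 genes rose and 9 fell, against 23 and 19 under scaling to totals. *Trim63*, the ubiquitin ligase MuRF1, rose from 0.745, 5.69 and 0.655 to 72.8, 72.4 and 72.5 CPM, and *Fbxo32*, the ligase atrogin-1, fell from 87.6, 84.9 and 119 to 47.1, 44.7 and 51 CPM.

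Among growth signals, the insulin-like growth factor axis had the most abundant members. *Igf2* stood at 88.2, 379 and 161 CPM in myoblasts and 5147, 3949 and 4357 CPM in myotubes (4.42 ± 0.65 [5.17]), and the non-coding RNA *H19* beside it at 1098, 3059 and 2495 and 25947, 24510.5 and 23326 CPM (3.47 ± 0.43). Both were lowest in myoblast replicate 1. *Igf1* was low throughout (0.823, 1.18 and 0.961 and 9.24, 6.2 and 5.21 CPM), and *Akt2*, a kinase of insulin signals, rose (2.24 ± 0.11). The list as a whole was split, with 12 of 29 genes higher and 10 lower, or 11 and 12 under scaling to totals. In the list of FGF, HGF and EGF receptors with Sprouty inhibitors, 19 of 34 fell. These include *Met*, the HGF receptor (232, 223 and 214 to 32.4, 42.3 and 26.9 CPM), *Egfr* (-2.16 ± 0.18), and the genes induced by this pathway *Etv4* (-4.56 ± 0.10), *Dusp6* (-1.26 ± 0.14), *Spry2* (-1.30 ± 0.09) and *Spry4* (-2.38 ± 0.14). *Fgf13* (2.79 ± 0.15) and *Erbb2* (2.42 ± 0.10) rose.

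Of 40 genes of TGF-β, BMP and myostatin signals, 11 rose and 19 fell. *Mstn*, the myostatin gene and a brake on muscle growth, rose from 9.12, 7.19 and 8.59 to 162, 105 and 136 CPM (4.02 ± 0.19), and its binding protein *Fst* from 11, 22.8 and 16.1 to 71.2, 157 and 125 CPM (2.83 ± 0.43). *Smad7*, a feedback inhibitor, fell (-2.89 ± 0.08). Wnt genes were divided, 15 higher and 17 lower of 39, with the ligand *Wnt9a* rising (2.60 ± 0.41), *Wnt7b* falling (-4.68 ± 0.25) and the target *Axin2* rising from a low level (0.155, 0.14 and 0.277 to 0.844, 1.83 and 2.22 CPM).

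Immediate early genes had no common direction (14 of 32 higher, 14 lower, 9 and 15 under scaling to totals, and 4 and 10 with all 24 libraries in the fit). *Fosl1*, an AP-1 subunit of proliferating cells, fell from 92.6, 79.8 and 72.3 to 4.42, 5.05 and 4.11 CPM, and *Egr2* rose (2.74 ± 0.30). In the interferon response, 7 of 29 genes rose and 7 fell, or 7 and 12 under scaling to totals, with *H2-K1*, a class I MHC gene, at 2.54 ± 0.26 and *Tap1* at -2.50 ± 0.22. Of 37 cytokine and chemokine genes, 19 fell, led in level by *Csf1*, a macrophage growth factor (724, 628 and 894 to 59.5, 61.4 and 51.8 CPM), and 7 rose, among them *Vegfb* (1.62 ± 0.07) and *Metrnl* (1.99 ± 0.17).

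Matrix and adhesion genes fell in level. By TPM, the list of integrins, laminins and matrix glycoproteins took 0.875 to 1.11% of myoblast and 0.188 to 0.202% of myotube transcripts, and 32 of 58 genes fell while 19 rose. *Spp1*, osteopontin, stood at 12718, 10047 and 11490.0 CPM in myoblasts and 1403, 1321 and 1283 CPM in myotubes (-3.10 ± 0.10). *Fn1*, fibronectin, fell from 2382, 1563 and 2186 to 315, 350.4 and 312 CPM, *Tnc* from 1134, 786 and 1342 to 36.2, 48.4 and 56.4 CPM and *Thbs1* from 2076, 1329 and 1260.0 to 88.6, 109.7 and 88.2 CPM, each with no overlap. The laminin chains changed apart: *Lamb1* fell (-3.51 ± 0.11), and *Lamb2* (2.30 ± 0.09) and *Lama2* (1.00 ± 0.11), chains of the muscle basal lamina, rose. *Itgb1bp2*, melusin, rose from 2.5, 16.5 and 2.29 to 322, 298 and 350.5 CPM. Collagens were split (12 of 31 higher, 10 lower), with the abundant *Col18a1* (2139.7, 1790.0 and 1728 to 175, 214 and 161 CPM), *Col4a1* (-2.41 ± 0.14) and *Col3a1* (-2.09 ± 0.19) falling and *Col5a3* (1.04, 0.888 and 1.27 to 52.7, 56.8 and 48.3 CPM) and *Col25a1* (3.42 ± 0.65 [4.31]) rising. Of 61 genes of the non-muscle cytoskeleton, 44 fell. *Flna* (-3.54 ± 0.09), *Stmn1* (-3.74 ± 0.12) and *Vim* (-0.89 ± 0.08) are examples, and *Nes*, an intermediate filament gene of young muscle (1.38 ± 0.07), *Vcl* (0.82 ± 0.05) and *Cap2* (3.76 ± 0.20) rose.

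**Figure D3:**
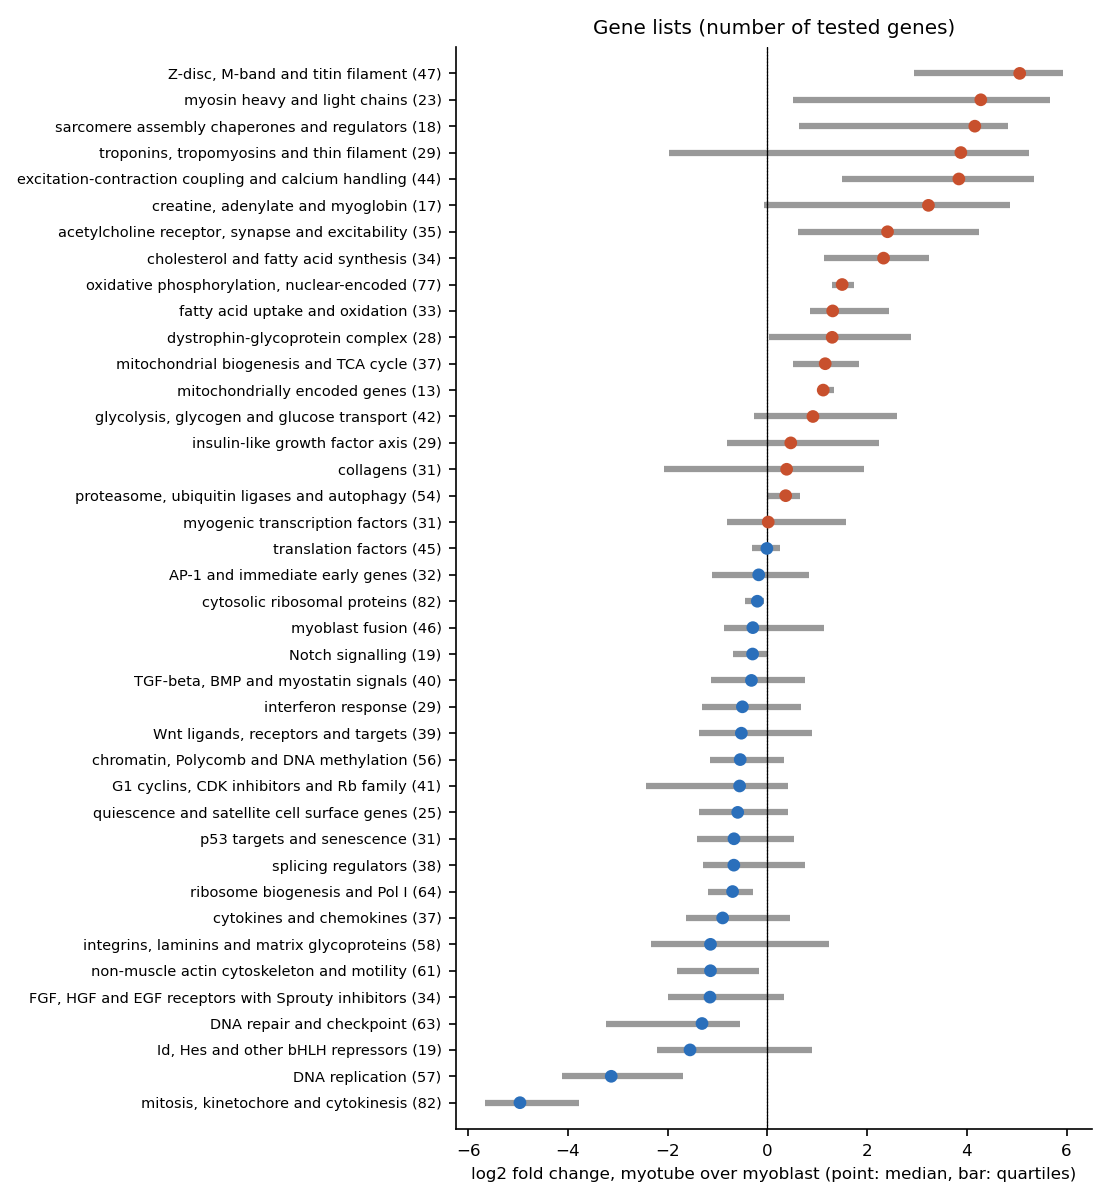
Median (point) and quartiles (bar) of the log2 fold change of myotubes over myoblasts for 40 gene lists, with the number of tested genes, and the median of all tested genes at -0.02 as a dotted line. Lists of the sarcomere, calcium handling and metabolism lie to the right, up to 5.06 for the Z-disc, and lists of replication and mitosis to the left, down to -4.96.

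Splicing regulators changed, and so did the mix of transcripts of many muscle genes. Of 38 regulators, 22 fell and 11 rose. *Ptbp1*, a repressor of tissue-specific exons, stood at 412, 398 and 390.0 CPM in myoblasts and 48.2, 54 and 53.9 CPM in myotubes (-2.94 ± 0.07). *Rbm24* (1.71 ± 0.07), *Rbfox1* (1.37 ± 0.10), *Celf2* (1.32 ± 0.07) and *Rbm38* (2.46 ± 0.08) rose, and *Mbnl1* did not pass the test (-0.06 ± 0.07; adjusted p = 0.479).

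The share of each transcript in its gene was tested over 9793 genes with diffSpliceDGE of edgeR, and 813 (8.30%) passed. On simulated counts this test made more false calls than its threshold allows, so a second test on log ratios with limma, chosen after the data were seen, was required as well. Both passed in 757 genes (7.73%), and in 24 of 49 tested genes of a list of muscle genes known for isoforms. The genes named here passed both.

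*Atp2a2*, the SERCA2 pump, has a muscle form and a general form. Transcript Atp2a2-202 made up 16.7, 28.7 and 17.6% of its TPM in myoblasts and 81.4, 83.1 and 83.6% in myotubes, and Atp2a2-201 went from 75.9, 62.9 and 69.3% to 12.4, 12.4 and 11.9% (adjusted p = 0.00102). The former was the lower of the pair in every myoblast library and the higher in every myotube library. For *Pkm*, which did not pass the test as a gene, Pkm-201 went from 57.7, 52.9 and 55.8% to 30.1, 30.3 and 29.5% and Pkm-202 from 18.2, 21.7 and 18.3% to 51.4, 52.5 and 50.2% (adjusted p = 0.000255). *Tpm1* lost Tpm1-211 (23.6, 21 and 23.5% to 0.644, 0.748 and 0.576%) and gained Tpm1-205 (12.9, 19 and 17.5% to 58.9, 59.4 and 58.6%). In *Fxr1*, an RNA-binding protein of muscle, Fxr1-201 rose from 3.92, 8.4 and 4.23% to 44.5, 42.2 and 44.6%.

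In the PDZ-LIM proteins of the Z-disc, a major transcript of myoblasts fell to a small share. Pdlim7-201 fell from 47.2, 40.1 and 49.6% to 0.355, 1.3 and 0.107% of *Pdlim7*, and Pdlim5-201 from 70.2, 49.6 and 67.4% to 1.87, 2.11 and 1.3% of *Pdlim5*, whose Pdlim5-203 reached 58.4, 59.4 and 60.9%. *Capzb*, the capping protein of thin filaments, had Capzb-202 at 22.2, 19 and 20.4% in myoblasts and 0% in each myotube library, with Capzb-203 at 4.4, 7.1 and 4.64% and 22.9, 25.3 and 24.2%. *Atp5c1*, a subunit of ATP synthase, moved from 2 transcripts to almost only Atp5c1-201 (94.9, 96 and 96.7% in myotubes, against 55.2, 58.9 and 61.5% in myoblasts). *Mef2d* gained a transcript that was minor in myoblasts, Mef2d-202 (1.36, 3.96 and 1.32% to 12.8, 13.9 and 12.1%), and Itga7-204 rose from 5.86, 14.2 and 7.59% to 36.3, 36.6 and 37.5% of *Itga7*. These shares come from short reads assigned to known transcripts, and some of the transcripts are fragments of under 1 kb, so the total of a gene is safer than any 1 share.

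**Figure D4:**
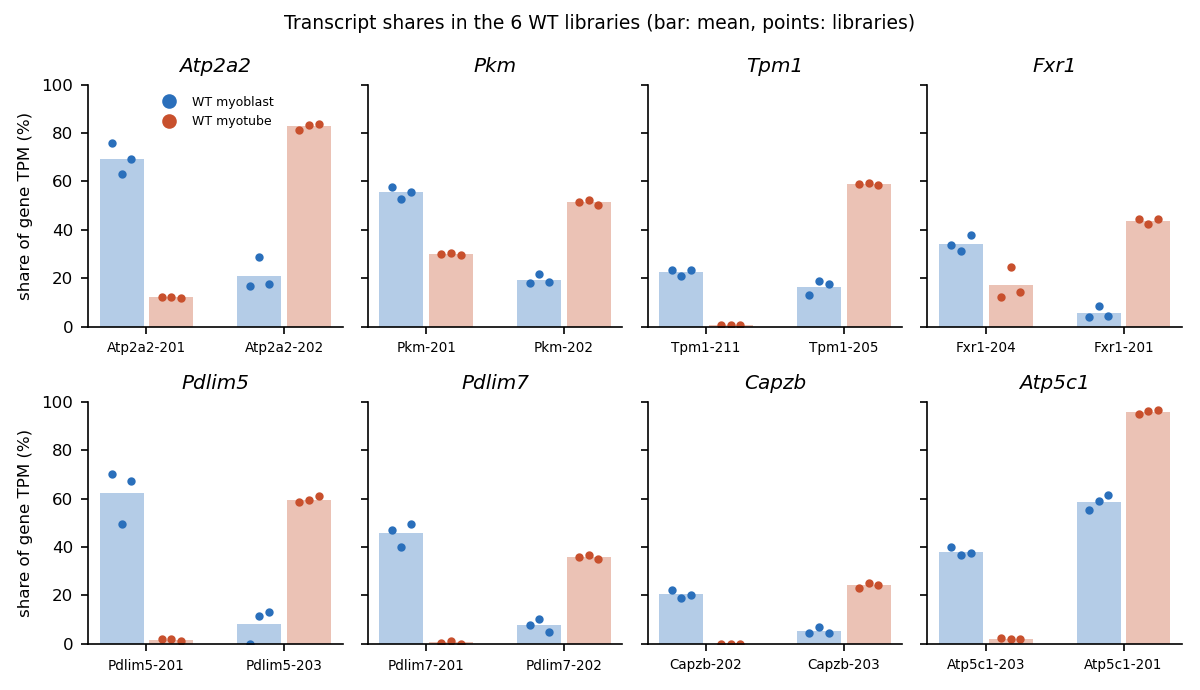
Share of gene TPM in percent for 2 transcripts each of 8 genes in the 3 WT myoblast (blue) and 3 WT myotube (red) libraries, with the mean as a bar and each library as a point. The 2 are those with the largest decrease and the largest increase in mean share, so their opposite directions follow from the choice. In every gene shown 1 transcript is lower and the other higher in all myotube libraries, as for Atp2a2-202, at 16.7 to 28.7% in myoblasts and 81.4 to 83.6% in myotubes.

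The *mdx* cultures gave a second comparison of myotubes with myoblasts that shares no library with the first. Of 17206 genes tested, 4431 (25.8%) rose and 4551 (26.5%) fell. The coefficient of variation between replicates in the fit was 0.384 in *mdx* and 0.2 in WT. A wider spread leaves fewer genes called, so these counts do not compare the size of the response between genotypes. Among genes that rose at least 2-fold in WT and were tested in *mdx* cultures, 97.2% of 3341 were also higher in *mdx* myotubes, and 99.2% of 3271 genes that fell were also lower. The median log2 fold changes were 2.01 in WT and 1.68 in *mdx* for the former, and -1.93 and -1.78 for the latter. These genes were chosen by their change in WT, which favours a larger median there. The medians therefore do not compare the size of the response between genotypes. *Myog* changed by 3.55 in WT (4.79 without WT myoblast replicate 2) and 5.24 in *mdx*, *Myh3* by 5.68 (7.24 without that library, above the value in *mdx*) and 6.72, and *Ccnb1* by -6.05 and -4.50.

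A difference between the genotypes in this response was called for 11 of 18585 genes (0.0592%), in a fit of all 12 libraries with an interaction term, and 2281 had an unadjusted p under 0.05. DESeq2 called 330. *Frmd5* rose in WT (4.88) and less in *mdx* (0.98; interaction -3.88, adjusted p = 0.0236). *Lgals3*, galectin-3, rose in WT from 105, 135 and 94 to 568, 483 and 388 CPM, against a log2 fold change of 0.14 in *mdx* (interaction -1.94, adjusted p = 0.035). *Pttg1* read 31.8 ± 6.23 CPM in *mdx* myoblasts and 1.61 ± 1.06 CPM in *mdx* myotubes (SD, n = 3), against 11.1, 11.3 and 12.8 and 15.3, 15.4 and 13.8 CPM in WT. The decrease of *Fbn1* (-2.32 in WT) and of *Phldb2* (-1.72) was larger in WT than in *mdx* (-1.06 and -0.67). These calls are not stable, since between 0 and 15 genes were called when 1 library was left out and 0 with the replicate number as a block (2376 at an unadjusted p under 0.05).

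Markers of most other cell types were low. Of 21 leukocyte markers 5 could be tested, and the whole list made up 0.000953 to 0.00146% of myoblast and 0.000343 to 0.000452% of myotube TPM. Of the 5, 2 rose and 2 fell. *Cd14* fell and *Mrc1* rose, and both calls were lost with all 24 libraries in 1 fit (adjusted p = 0.06 and 0.283). *Ptprc*, which codes for CD45, was at 0 in 5 of 6 libraries, and *Aif1*, *Ly6g* and *C1qc* at 0 in all 6. *Itgam*, which codes for CD11b, rose from 0, 0.187 and 0 to 5.04, 6.11 and 8.85 CPM. Endothelial markers (7 of 12 tested) summed to 0.000813 to 0.00192% and 0.00129 to 0.00162% of TPM, adipocyte markers (3 of 9) to under 0.0005% and Schwann and neural markers (4 of 10) to at most 0.000528%. In these lists 2 endothelial markers rose and 0 fell, 1 adipocyte marker rose and 1 fell, and 0 Schwann and neural markers rose and 2 fell. Fibroblast and fibro-adipogenic markers (11 of 16) took 0.0241 to 0.0325% of myoblast and 0.00889 to 0.0126% of myotube TPM, where 4 fell and 2 rose. Of the defining genes, *Pdgfra* stayed at or below 1.60 CPM, *Lum* and *Tcf21* were at 0 throughout, and the sum was carried by *Col3a1* (626, 519 and 505 CPM in myoblasts) and *Fbln1*, which are also matrix genes. Smooth muscle and pericyte markers (9 of 13) took 0.0397 to 0.0526% of myoblast and 0.159 to 0.182% of myotube TPM, where 5 rose and 3 fell. Cartilage and bone markers (5 of 10) took 0.00538 to 0.0058% and 0.00901 to 0.0104%, where 1 rose and 3 fell. In these 2 lists, *Myh11*, *Cnn1* and *Acan* lay under 1 CPM, and *Acta2*, *Des* and *Runx2* made up most of the rest. Which cells the transcripts of the marker lists came from was not tested. Myoblast markers themselves were mixed, with 5 of 9 lower and 3 higher, while 10 of 10 myotube markers rose.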

How the data were processed

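Poly(A) RNA of the cultures was sequenced, and the authors deposited per transcript an expected count, an effective length and a TPM value, which relates counts to transcript length and library depth. Salmon 0.13.1 is named for this step in the notes of the submitters, beside DESeq2 and the build GRCm38. Strand setting and annotation release are not given in the sources used here. Expected counts were summed per gene and rounded, and 53355 of 53392 genes were matched to GENCODE M21 for symbols and coordinates.

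Genes were kept by filterByExpr, scaled by TMM and tested with the robust quasi-likelihood test of edgeR 4.0.16 (R 4.3.3) over the 6 WT libraries, with Benjamini-Hochberg adjustment and a threshold of 0.05. The 6 *mdx* culture libraries were fitted likewise, and the interaction of genotype and state over all 12. Transcript shares were tested with diffSpliceDGE and limma 3.58.1. The steps were tested on simulated data. Alternatives were RLE, upper quartile and total scaling, 2 filters, DESeq2 1.42.0, a length offset, all 24 libraries in 1 fit, a replicate block and leaving out each library. The replicates are biological triplicates per the series design, and the spread between them sets the precision at these depths.

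Named genes were the 12 largest changes each way among called genes with no overlap and an average log2 CPM of at least 4 (predicted loci left out), key genes of 40 pathway lists, per list up to 3 further genes by smallest p and 3 against its median, 9 marker lists, 5 interaction genes each way, and genes of a list of isoforms that passed. Members and lists were chosen with earlier results of these data known. Some genes that the rule names are not reported here.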

Additional observations from a re-analysis of the deposited data

Results flagged for a closer look

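The change from myoblast to myotube differed between the genotypes for 9 named genes, by the interaction term of the edgeR fit over 12 libraries (log2 change in *mdx* minus that in WT, adjusted over 18585 genes). The other 2 of the 11 genes called are the predicted loci *Gm47486* and *Gm9726*. For 4 of the 9 the change was less positive or more negative in *mdx*. *Frmd5* had an interaction of -3.88 (adjusted p = 0.0236), with a mean of 0.116 CPM in WT myoblasts and 1.99 CPM in *mdx* myoblasts but 3.48 and 3.91 CPM in myotubes (n = 3 each). *Lgals3* (-1.94, adjusted p = 0.035) stood at 479.6 ± 90.1 CPM in WT and 178 ± 27.3 CPM in *mdx* myotubes (SD). *Ephx1*, the microsomal epoxide hydrolase, rose in WT (1.27) and fell in *mdx* (-0.56; interaction -1.80, adjusted p = 0.035). *Pttg1* differed by -4.58 (adjusted p = 0.0355), with 11.7 ± 0.95 CPM in WT and 31.8 ± 6.23 CPM in *mdx* myoblasts. The CPM of the genotypes were scaled apart, and only the change from myoblast to myotube was tested between them.

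For the other 5 the interaction was positive. *Phldb2* (1.07, adjusted p = 0.035), *Rcl1* (0.86, adjusted p = 0.0439), *Creb3l2* (0.99, adjusted p = 0.0439) and *Fbn1* (1.29, adjusted p = 0.0445) fell in both genotypes and by less in *mdx*, as *Creb3l2* did by 2.05 in WT and 1.09 in *mdx* on the log2 scale. *Lrrn2* rose in both, by 0.90 in WT and 1.93 in *mdx* (interaction 1.04, adjusted p = 0.0445). Each of the 9 lost its call when some libraries were left out, and with the replicate number as a block (adjusted p = 0.134 to 0.189).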

How the results depend on the processing

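The counts of genes higher and lower in WT and in *mdx* myotubes stayed within 1.5 times of their values under each alternative run. Their balance in WT did not, since 4543 rose and 7477 fell under scaling to totals. Of the 495 named genes that passed the test, 25 lost the call with all 24 libraries in 1 fit, 20 with the length offset, 18 under scaling to totals and at most 12 in any other setting. Scaling to totals turned the direction of *Cox8a* (-0.072), *Eif4ebp1* (-0.10) and *Rpl14* (-0.071), and the length offset that of *Polr1a* (0.023). The cause was not tested.

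The interaction gave 11 genes, against 7 with RLE size factors, 330 with DESeq2 and 0 with the replicate block, where 2376 genes had an unadjusted p under 0.05. It gave between 0 and 15 genes when 1 library was left out, with 0 without WT myoblast replicate 3, WT myotube replicate 1 or 2, *mdx* myoblast replicate 2 or *mdx* myotube replicate 3, 1 without WT myoblast replicate 1, 2 without *mdx* myoblast replicate 3, 3 without *mdx* myotube replicate 1, 4 without WT myoblast replicate 2 or WT myotube replicate 3, and 15 without *mdx* myotube replicate 2. Unadjusted p was under 0.05 for 1727 to 2884 genes in these fits. Transcript shares gave 813 genes, against 1673 with diffSplice of limma, 1813 with limma on log ratios and 499 with the replicate block.

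Same-numbered WT myoblast and myotube libraries had correlations of their deviations of 0.101, 0.0324 and 0.0841, each the best match of its myotube library, which is a hint from the data and not the design. In *mdx* cultures (0.357, 0.0577 and 0.0883) myotube replicates 2 and 3 matched another number better (0.17 and 0.142). With the replicate block 2 of the 495 named calls were lost, and no WT or *mdx* count moved by over 1.5 times.

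In promoters of genes that rose at least 4-fold, CAGCTG occurred in 23.9%, the MEF2 site in 5.26% and the CArG box in 2.1%, and in those that fell at least 4-fold CAGCTG occurred in 17.1%, the CArG box in 2.17% and TTTGAA in 17.3%.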
